A study of Mus musculus with 4 samples.

Results

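Isl1 binding was mapped at 38 genes that encode chromatin remodelling proteins and histone acetyltransferases, out of 21883 protein-coding genes on the mouse chromosomes. The 38 genes were taken by name, with earlier results of these data known, among them high-scoring peaks in Arid1a and Baz2a. A peak was counted at a gene when its midpoint lay in the gene or within 100 kb of it. Chromatin came from genital tubercles of wildtype CD1 mouse embryos at E14.5 (the number counts embryonic days), and Isl1, a LIM-homeodomain transcription factor, was precipitated from it with a rabbit monoclonal antibody in 2 ChIP replicates. ChIP-seq sequences the DNA fragments that come down with a protein. The 2 input DNA samples of the same tissue, age, strain and genotype, made without antibody, had no peak list here and were not analysed. The labels give neither the number of embryos per sample nor their sex, and nothing says that the replicates came from separate litters. The tubercle holds many cell types, so a peak in these lists may come from a part of the cells, and no expression was measured against which the tissue label could be checked.

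Chromatin remodellers are motors that use ATP to slide, eject or exchange nucleosomes, the spools on which DNA is wound. They fall into the SWI/SNF, ISWI, CHD and INO80 families, named by their motor subunit, and the same motor works in different complexes depending on the subunits around it. Histone acetyltransferases add acetyl groups to histone tails, a mark of active promoters and enhancers, and bromodomain proteins in several remodelling complexes can bind such groups. Most of these genes are expressed in nearly all cell types, and loss of a single copy of several of them is known to disturb development.

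Replicate 1 held 8860 peaks and replicate 2 held 10162, and 6834 regions were shared, meaning that peaks of both lists overlapped there by at least 1 bp. Each peak carried the authors' own score, a whole number from 20 to 1637 in replicate 1 and from 20 to 1638 in replicate 2. Shared regions were ranked by the lower of their scores, and rank 1 is the strongest of the 6834. The read depth of each library is unknown from the lists. With 1 list per replicate and no list from a control, no test between groups of samples could be made, and the values below are descriptions. Wilson intervals cover counting error only. All positions are in mm10.

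Of the 38 genes, 23 had at least 1 shared region in the gene or within 100 kb (60.5%, Wilson 95% interval 44.7 to 74.4%), against 38.1% of all protein-coding genes. These 23 genes had 50 shared regions. A window of 100 kb often takes in the neighbours, and 23 of the 50 regions lay in or closer to another protein-coding gene. For 14 genes (36.8%, 23.4 to 52.7%) at least 1 region lay in the gene or had it as the nearest gene, against a background of 14.1%. A region lay inside the gene at 12 of them (31.6%, 19.1 to 47.5%), against 8.32% of all genes. Within 1 kb of an end of the gene, a region was found at 5 (13.2%, 5.75 to 27.3%), against 4.89%. Arid1a and Baz2a, whose peaks were known when the genes were named, count toward these shares (Baz2a not toward the last). Neither these shares nor those by length below are independent support.

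The 38 genes are long, with a median of 80.5 kb against 17.2 kb for all protein-coding genes, and a longer gene offers more room for a region. Among genes of 32.9 to 117 kb, the range between the quartiles of the 38, a region lay inside 5 of 18 of these genes (27.8%) and inside 548 of 5014 others (10.9%). In the same length range the gene was the nearest for 6 of 18 (33.3%) against 19.0% of the others, and a region lay in the window of 9 of 18 against 41.9% of the others. This range was chosen after the data were seen. The shares of 18 genes rest on small counts, and no interval was computed for them. Counted per length, the joined windows of the 38 genes held 4.50 shared regions per Mb, and those of all protein-coding genes held 2.65.

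**Figure D1:**
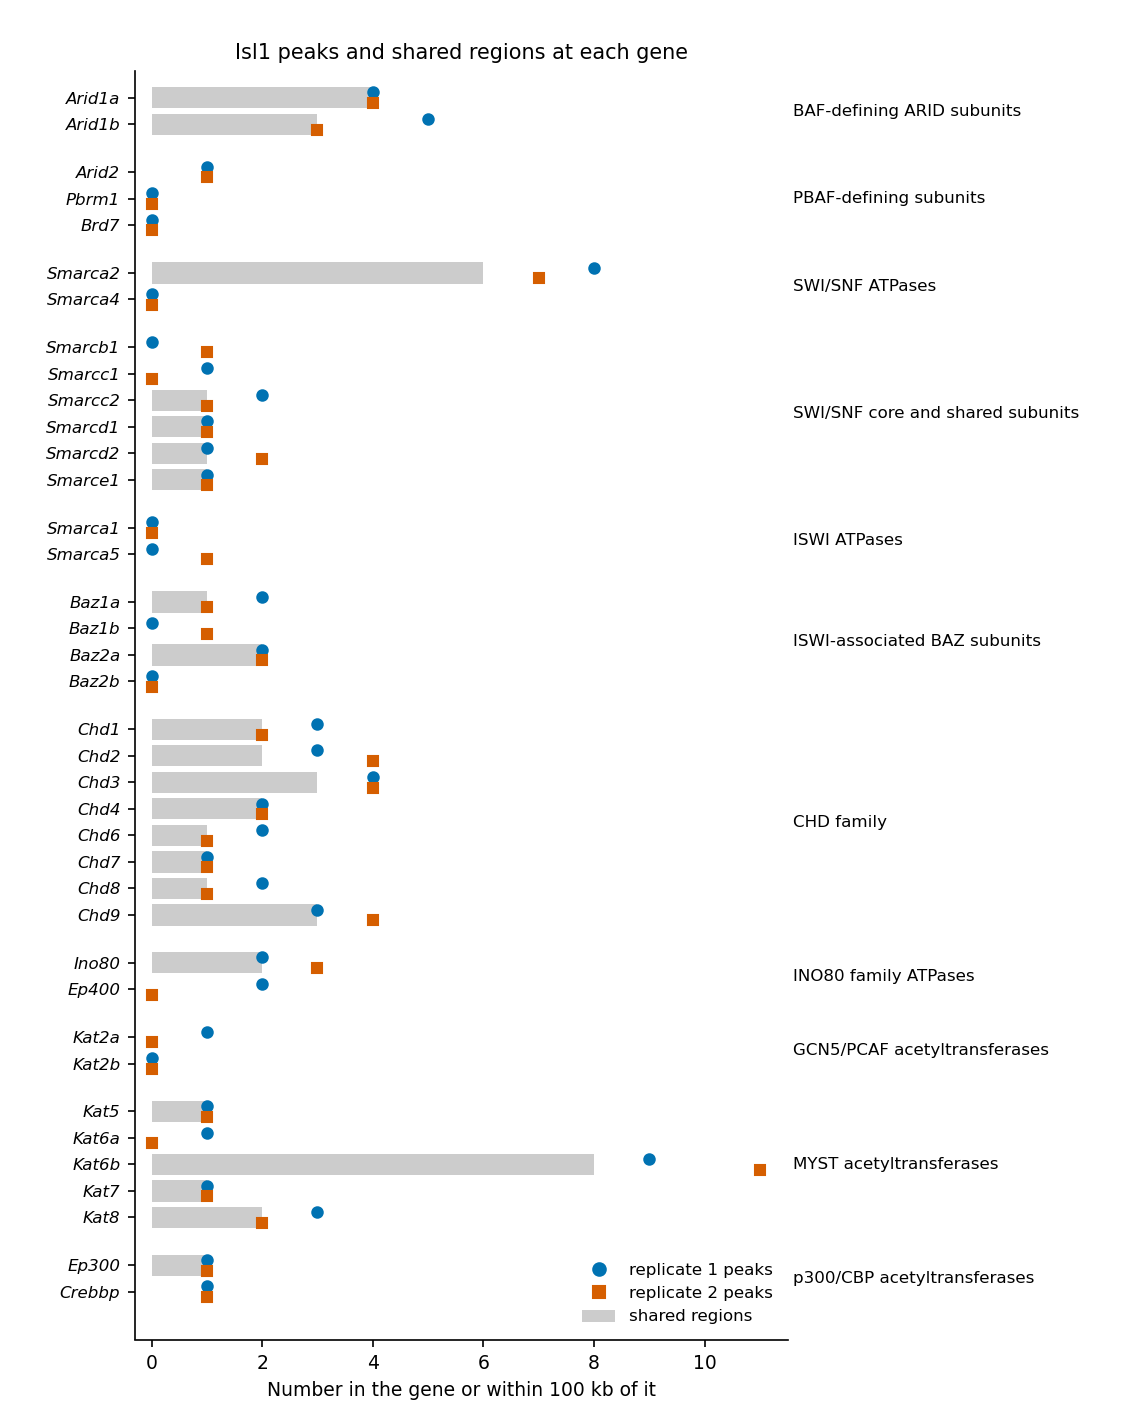
Number of Isl1 peaks in replicate 1 (circles) and replicate 2 (squares) and of shared regions (grey bars) in each gene or within 100 kb of it, by role. Kat6b (8 shared regions) and Smarca2 (6) hold the most, while 15 genes have no grey bar.

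Arid1a, which encodes the largest subunit of the BAF form of SWI/SNF, carried the densest strong binding. It spans positions 133679008 to 133756769 of chromosome 4 on the minus strand, and the RefSeq promoter table gives it 2 transcription starts, 2.78 kb apart. A region over the upstream start (133756659 to 133757237) had scores of 1019 in replicate 1 and 926 in replicate 2, and its midpoint lay 156 bp upstream of that start. A second region (133757307 to 133757802), only 69 bp farther out and centred 825 bp upstream, had scores of 1077 and 1000. The third (133754273 to 133754616) lay between the starts, inside the gene and 461 bp upstream of the second start, with scores of 1248 and 1304. The 3 regions ranked 38, 25 and 8 and fitted within 3.53 kb. Both replicates held a single peak at each of them, and the order of the 3 by score was the same in both. The fourth region of Arid1a in the window (133813720 to 133813922, scores 364 and 297) lay 57.1 kb away, inside Gm34296.

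A region was called strong here when its lower score was at least 316, which 692 of the 6834 regions reached, and a strong region lay in the gene or within 1 kb of it at 4 of the 38 genes (10.5%, Wilson 95% interval 4.17 to 24.1%) against 2.5% of all genes. These were Arid1a, Baz2a, Ino80 and Smarcd2. The genes were chosen with the regions of Arid1a and Baz2a known, so this share is not independent support. Gene length was not matched for it. Only 6 of the 21883 protein-coding genes had 3 or more strong regions in this stretch and 41 had 2 or more, and Arid1a was among the 6.

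Ino80, the motor of the complex of that name, had its strong region over the tabled start. The gene covers positions 119373042 to 119478685 of chromosome 2 on the minus strand. The region (119477614 to 119477993) had scores of 976 and 736, ranked 106 and was centred 116 bp upstream of the start. A second and far weaker region (119477200 to 119477358), 255 bp away on the gene's side, had scores of 128 and 83. Replicate 2 held a further unshared peak 68.9 kb from the gene, inside Exd1, with a score of 129.

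Arid1a and Ino80 were the only members whose RefSeq promoter, the stretch from 250 bases before the start to 50 after it, was overlapped by a shared region. That is 2 of the 30 members with a tabled promoter (6.67%, Wilson 95% interval 1.85 to 21.3%), near the background of 4.29% over 17491 genes. The 250 bases before the start are shown for both, since each lies wholly within the Isl1 region described above. They are RefSeq sequence of GRCm38.p6, whose coordinates are those of mm10, from chr4:133756770-133757019 and chr2:119477688-119477937, minus strand, read 5′ to 3′ toward the start. Capitals mark matches to any of the 12 short motifs searched on both strands.
Arid1a: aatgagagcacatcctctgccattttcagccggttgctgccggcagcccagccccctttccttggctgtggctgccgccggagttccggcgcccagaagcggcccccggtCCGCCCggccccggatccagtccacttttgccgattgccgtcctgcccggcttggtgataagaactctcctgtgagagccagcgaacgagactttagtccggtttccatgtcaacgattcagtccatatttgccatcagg
Ino80: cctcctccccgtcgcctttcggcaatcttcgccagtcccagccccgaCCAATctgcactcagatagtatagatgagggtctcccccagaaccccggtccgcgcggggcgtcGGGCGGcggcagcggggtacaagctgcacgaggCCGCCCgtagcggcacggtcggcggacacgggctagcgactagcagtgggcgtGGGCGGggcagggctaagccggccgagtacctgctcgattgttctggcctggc

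In the Arid1a stretch the only match was to GGGCGG, the GC box of Sp and Klf factors, on the opposite strand (CCGCCC). The Ino80 stretch held this box 3 times, once on the opposite strand, and the CCAAT box of NF-Y once. Neither stretch held TAAT, the core letters that homeodomain proteins such as Isl1 commonly bind, or its reverse complement. TAAT or its complement was in 16 of the 37 promoters of these genes (43.2%), in 344 of the 817 tabled promoters under any shared region (42.1%), and in 49.4% of all 21262. A promoter counted as under a region when any base overlapped, so the searched bases may lie partly or wholly outside the region. The longer homeodomain words that contain TAAT were also searched. CTAATG was in 3.92% of promoters under a shared region and 5.69% of all, TAATTA in 1.22% and 4.30%, and TAATTG in 4.16% and 6.28%. GGGCGG was in 28 of the 37 promoters of these genes (75.7%), against 53.7% of those under a region and 42.6% of all. The G and C content of the 250 bases moved the same way, with medians of 66.0%, 60.0% and 55.6%. Its part in these shares was not tested.

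**Figure D2:**
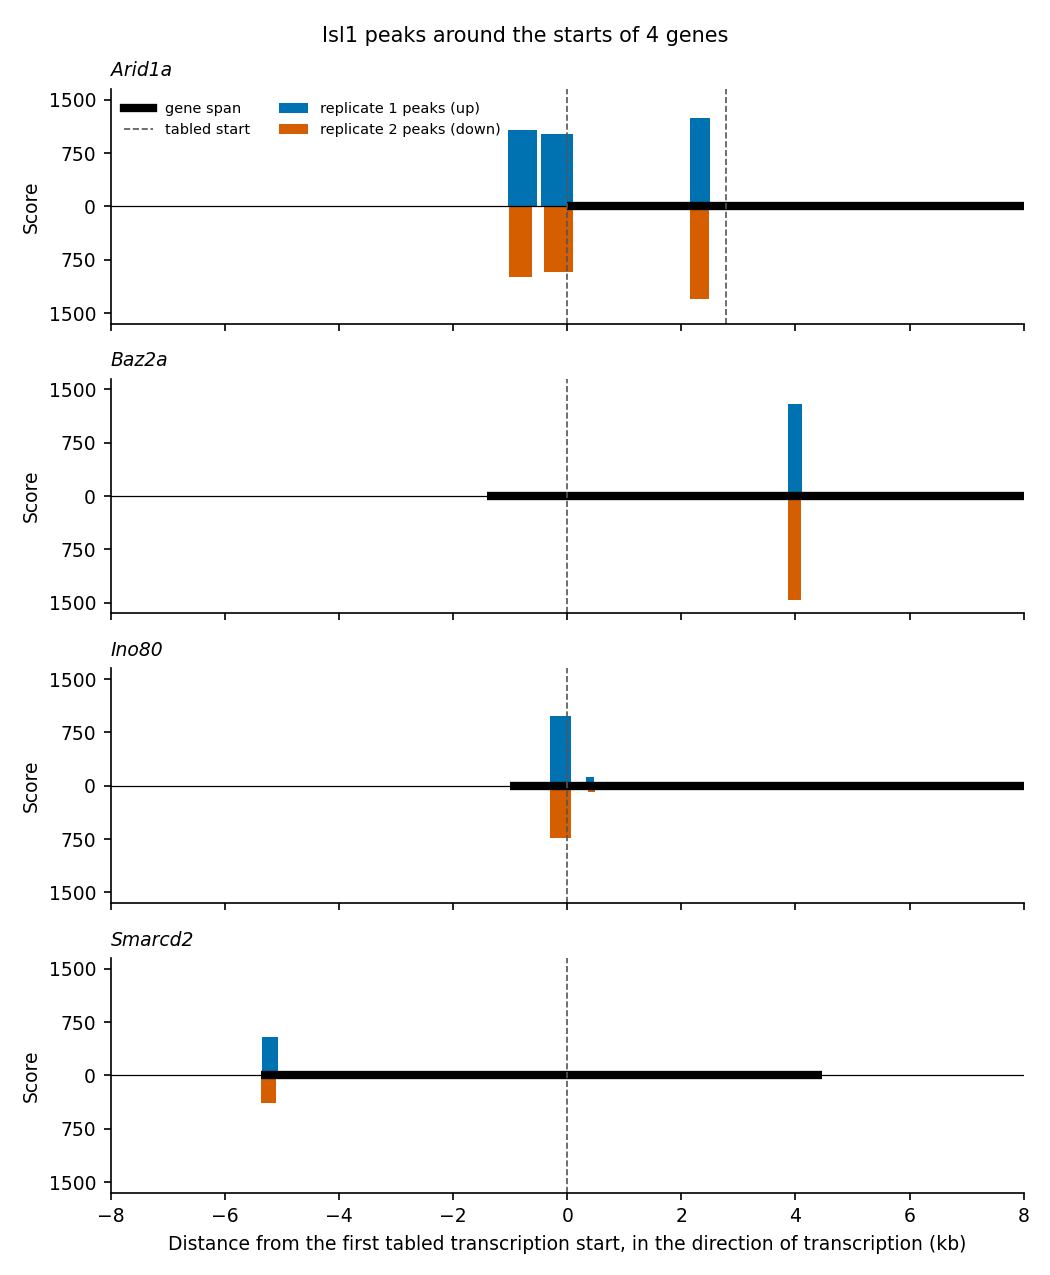
Authors' peak scores of replicate 1 (upward bars) and replicate 2 (downward bars) against distance from the first tabled start in kb, drawn at the width of each peak, for 4 genes. Black bars show the gene span and dashed lines the tabled starts: peaks flank or cover the first start of Arid1a and Ino80, lie 3.98 kb into Baz2a and sit at the far upstream edge of the span of Smarcd2.

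Arid1b, the paralogue of Arid1a, had 3 shared regions, all with Arid1b as the nearest gene, but no strong one within the gene. It lies on chromosome 17 (4994297 to 5347656, plus strand). A region at the very edge of the gene (4994228 to 4994368), centred 778 bp upstream of the tabled start, had scores of 138 and 156. Another lay deep inside, 144 kb from the start (5139112 to 5139543), with scores of 161 and 106. The strongest was 85.8 kb away on the upstream side (4908352 to 4908625), with scores of 339 and 386. Replicate 1 alone gave Arid1b 5 peaks, the additional ones with scores of 51 and 39.

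The subunits that define the PBAF form of SWI/SNF had no shared region. Pbrm1, a protein with many bromodomains, and Brd7 had no peak in either list. Arid2 had 1 peak in each list close to its lower-coordinate end on chromosome 15, 1.92 kb away in replicate 1 (score 127) and 0.774 kb away in replicate 2 (score 90). These peaks did not overlap, and both lay inside Gm38469.

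The SWI/SNF motors differed in the number of regions. Smarca2, which encodes BRM, had 6 regions, of which 3 lay inside it and 5 had it as the nearest gene (chromosome 19, 26605073 to 26778321, plus strand). The region with the highest scores inside it (26748040 to 26748471, scores 290 and 349) lay 143 kb downstream of the start. The others inside it were weaker, with scores of 36 and 103 at 17.8 kb downstream of the start and of 46 and 51 at 165 kb. On the upstream side, a region 1.95 kb from the start had scores of 53 and 67, and another 56.1 kb from it had 112 and 74. The remaining region (26845314 to 26845573) scored 1124 and 782 and ranked 87, but it lay 67.1 kb beyond Smarca2 and 40.5 kb from Gm815. Smarca4, which encodes the alternative motor BRG1, had no peak in either list within 100 kb. Smarca2 is 173 kb long and Smarca4 88.1 kb.

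Among the other SWI/SNF subunits, which all forms or several forms of the complex share, only Smarcd2 had a region of its own. It is a short gene of 9.83 kb on chromosome 11, and its region (106272708 to 106272996) had scores of 535 and 382. This region lay 142 bp inside the upstream end of the annotated gene span and 5.22 kb upstream of the tabled start, so whether it marks a start depends on which transcript is used. Replicate 2 held a further peak 46.3 kb away, next to Ddx42, with a score of 156. Smarcc2, Smarcd1 and Smarce1 had 1 weak shared region each, with lower scores of 32, 43 and 69, all at 39.3 to 49.1 kb. Those regions lay in Nabp2 or nearest to Asic1 and Ccr7. Replicate 1 alone gave Smarcc2 a second peak (score 93), inside Myl6b. Smarcb1 and Smarcc1 had 1 peak each in a single list, with scores of 33 and 66.

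The ISWI motors, Smarca1 (SNF2L) and Smarca5 (SNF2H), had no shared region, and the only peak near either was a replicate 2 peak with a score of 34, 85.3 kb from Smarca5 and inside Gab1. Their partner Baz2a, which encodes the TIP5 subunit of the nucleolar remodelling complex, held the strongest region inside any of the 38 genes. This region (chromosome 10, 128096649 to 128096892) had scores of 1300 and 1461, ranked 6 and lay 3.98 kb downstream of the tabled start. It was narrow: the replicate 1 peak was 243 bp wide and the replicate 2 peak 237 bp. A second strong region 47.4 kb beyond the gene (128176592 to 128176825, scores 1063 and 958) lay inside Rbms2.

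The other BAZ genes had little. Baz1a had a weak shared region 33.2 kb away inside Cfl2 (scores 49 and 134) and a replicate 1 peak inside the gene with a score of 47. Baz1b had a replicate 2 peak alone, 506 bp from its start, with a score of 66. Baz2b had no peak in either list, although it is 311 kb long and Baz2a 37.9 kb.

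Of the CHD family, remodellers with paired chromodomains, 8 genes are among the 38. Chd5 was counted with the other subunits below, and had no shared region in the gene or within 1 kb of it. All 8 CHD genes of the 38 had at least 1 shared region within 100 kb, against 38.1% of all protein-coding genes. Of the 8, 7 were the nearest gene of a region, against 14.1%. These genes are 26.2 to 226 kb long, all above the 17.2 kb median of protein-coding genes. Among other genes of 32.9 to 117 kb, a range that leaves out some CHD genes, these shares were 41.9% and 19.0%. Other groups by role, such as the PBAF subunits and the ISWI motors, had no shared region, and the groups were not compared by a test. The CHD genes had 15 regions in all, some of them in or nearest to another gene. The lower scores of these regions had a median of 107, close to the 91 of all shared regions. The strongest region inside a CHD gene was in Chd9 (chromosome 8, 90861897 to 90862225), with scores of 319 and 284, 33.2 kb downstream of the nearest tabled start. A second region in Chd9 (90954744 to 90954941) had scores of 108 and 138, and the third lay 15.5 kb beyond it beside Rbl2 (scores 107 and 120). Chd9 belongs to the same subgroup as Chd6, Chd7 and Chd8, and each of these had 1 shared region, inside the gene.

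Chd7, the gene mutated in CHARGE syndrome, whose features include genital hypoplasia, had scores of 170 and 328 at its region (chromosome 4, 8850246 to 8850513), 18.04 kb from the nearer end of the gene. Chd6 had 138 and 162 (chromosome 2, 161036373 to 161036621), 72.6 kb downstream of its start. Chd8 had 105 and 80 (chromosome 14, 52257317 to 52257523), 376 bp downstream of its start. Replicate 1 alone added a peak near Chd6 (score 61) and near Chd8 (score 46), which makes 2 peaks at each. Of these subgroup genes, Chd8 was the only one with its region near the start.

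Chd1 had a region inside it, 1.94 kb from an end (chromosome 17, 15770494 to 15770858, scores 62 and 83), and another 32.2 kb outside (scores 85 and 117). Chd2 had 2 regions outside, at 65.3 kb (scores 90 and 44) and 97.7 kb (85 and 90), and the latter was nearer to Rgma. Replicate 2 alone gave Chd2 4 peaks. Chd3 and Chd4 encode motors of the NuRD complex, which couples remodelling to histone deacetylation. Chd3 had 1 region of its own, 2.26 kb from an end of the gene (scores 74 and 95), and 2 inside its neighbour Kdm6b, a histone demethylase gene, of which the stronger scored 1070 and 1053. Chd4 had none of its own: its 2 regions lay inside Lpar5 (scores 114 and 156) and Gapdh (203 and 236).

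**Figure D3:**
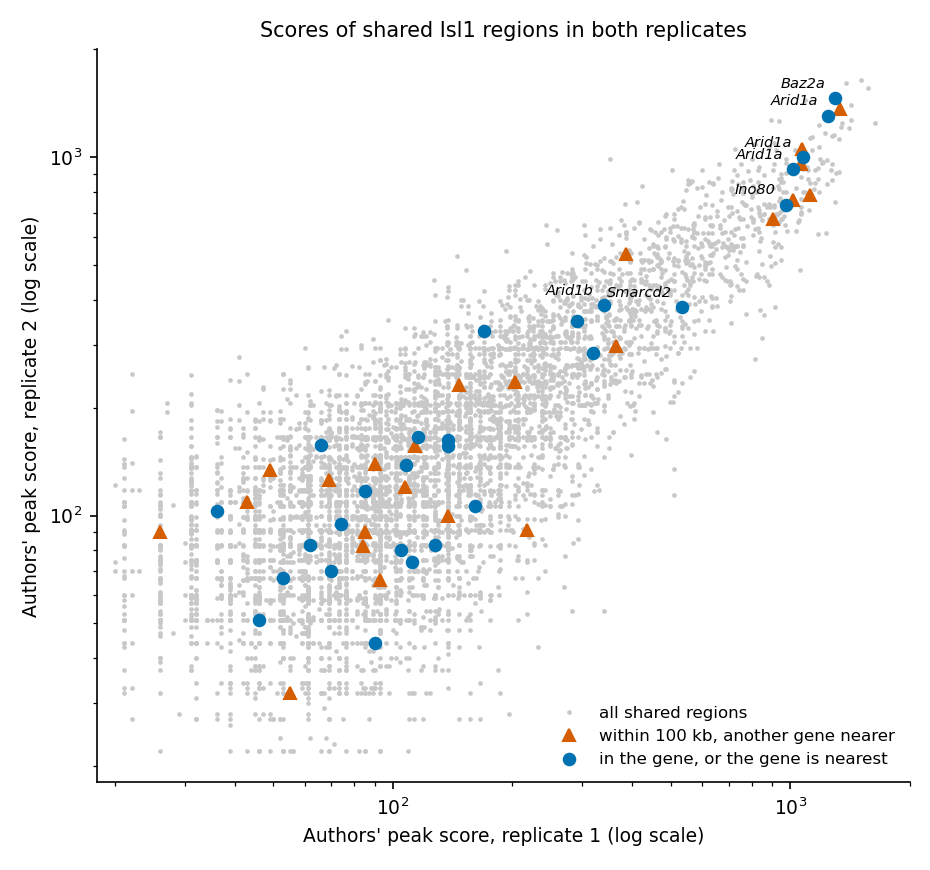
Authors' scores of the shared regions in replicate 1 and replicate 2, both on log axes. Grey points are all 6834 shared regions, blue circles the 27 regions that lie in or nearest to a remodelling or acetyltransferase gene and orange triangles the 23 closer to another gene. The named points are the blue circles with a lower score of at least 316, and the 7 orange triangles that reach it are not named.

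Ep400, the motor of the TIP60 complex, had no shared region. Replicate 1 held a peak 39 bp from its tabled start with a score of 118 and a second in Pus1, also 118, and replicate 2 held none. Kat5, which encodes the acetyltransferase TIP60 of the same complex, had a region 77.5 kb away, inside Map3k11 and 87 bp from an end of Pcnx3 (scores 386 and 535).

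Among the other MYST acetyltransferases, Kat6b had 8 shared regions, the most of any of the 38 genes, with 9 peaks in replicate 1 and 11 in replicate 2. Kat6b encodes a histone H3 acetyltransferase and is mutated in genitopatellar syndrome, which affects the genitalia. Of its regions, 3 lay inside the gene (chromosome 14, 21499216 to 21672478, plus strand). The first of these (21500212 to 21500386), with a score of 70 in both replicates, lay 509 bp downstream of the nearest tabled start. Those at 21608946 to 21609415 (scores 116 and 166) and 21623283 to 21623539 (66 and 157) lay 109 and 124 kb downstream. A further 4 lay beyond the gene in or nearest to Dupd1, at 34.7 kb (scores 26 and 90), 38.4 kb (93 and 66), 38.96 kb (84 and 82) and 49.99 kb (90 and 139). The last lay inside Adk, 57.3 kb on the upstream side, with scores of 147 and 231. The lower scores of all 8 ran from 26 to 147, so that Kat6b had many regions and none among the strong ones.

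Its paralogue Kat6a had no shared region and a single replicate 1 peak, 17 bp from the lower-coordinate end of the gene, with a score of 85. Kat6a is 83.8 kb long and Kat6b 173 kb. Kat7 and Kat8 had strong regions nearby, but all of them at other genes. The region 74.4 kb from Kat7 (scores 1017 and 761) lay 171 bp from Slc35b1. The strongest near Kat8, 36.6 kb away, lay inside Zfp668 (1334 and 1362, rank 5).

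The remaining acetyltransferases, among them the enhancer coactivators p300 and CBP, had no region of their own. Ep300 (p300) had 1 region, 93.0 kb away beside Zc3h7b, with scores of 217 and 91. Its paralogue Crebbp (CBP) had 1 peak in each list, 3.49 kb away in replicate 1 (score 69) and 60.2 kb away in replicate 2 (score 83), which did not overlap. Kat2b (PCAF) had no peak, and Kat2a (GCN5) had only a replicate 1 peak in Nkiras2, with a score of 90. In all, 6 of the 38 genes had no peak in either list, and 9 had peaks but none that the replicates shared. Binding too weak for the authors' threshold would not be listed, so these genes may still be bound.

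Scores were compared by place, without a test. The 6 regions within 1 kb of an end of one of these genes had a median lower score of 559, with values of 80, 138, 382, 736, 926 and 1000, of which the highest pair are from Arid1a. The 15 farther inside had a median of 108 (36 to 1300), and the 6 outside with the gene as the nearest had 74 (44 to 339). Places were taken from the ends of the gene span. The 15 therefore include regions within 1 kb of a tabled start in Arid1a (lower score 1248), Ino80 (83) and Kat6b (70). The 23 closer to another gene had a median of 107 (26 to 1334), and 8 of those lay within 1 kb of an end of that other gene. The ranges overlapped, and the highest scores were in the classes away from the ends of these genes. The region with 1334, near Kat8, lay 956 bp from an end of Zfp668. That with 1248 lay 461 bp from a tabled start of Arid1a, and that with 1300 lay 3.98 kb from the tabled start of Baz2a. Over all 50 regions the median was 107.5, with quartiles of 71.0 and 371, against 91.0, 59.0 and 166 for all shared regions. Strong regions made up 14 of the 50 (28.0%) and 10.1% of all 6834. This share too rests on genes chosen with the strong regions of Arid1a and Baz2a known. Of the 14, 7 lay in or nearest to one of the 38 genes and 7 were closer to another gene.

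**Figure D4:**
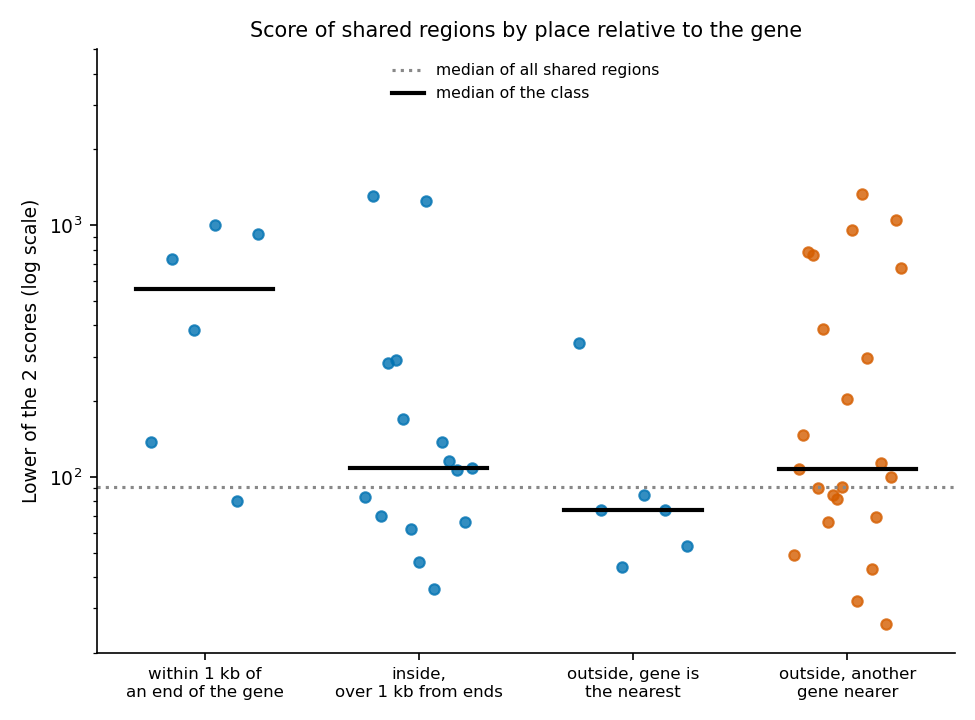
Lower of the replicate scores (log axis) for the 50 shared regions by their place relative to the gene; each point is a region, black bars are medians, and the dotted line is the median of all shared regions, 91.0. The medians are 559, 108, 74 and 107 from left to right, and the first class rests on 6 regions.

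Genes were also counted by distance to tabled starts, and scores were not compared by that distance. Of the 30 genes with a tabled promoter, 5 had a shared region within 1 kb of a start (16.7%, Wilson 95% interval 7.34 to 33.6%), against 4.93% of all genes with one. They were Arid1a, Arid1b, Ino80, Chd8 and Kat6b. The peaks of Arid1a were known when the genes were named, so this share is not independent support either. The narrower count of regions over a tabled promoter, given above, was near the background. Smarcd2 was counted at a gene end but not at a start, and Kat6b at a start but not at an end of the gene span, from which its region lay 1.08 kb. Further peaks near the ends of these genes were in a single list: those of Ep400 and Kat6a in replicate 1, and those of Baz1b and Arid2 in replicate 2. At the 100 kb limit, the region farthest out was the one 97.7 kb from Chd2, and the first outside lay 101 kb from Kat7 (scores 66 and 127).

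In the windows of the 38 genes, 50 of 70 replicate 1 peaks (71.4%, 59.9 to 80.7%) and 50 of 65 replicate 2 peaks (76.9%, 65.4 to 85.5%) were shared, against 78.5% and 68.3% of the whole lists. The shared ones had median scores of 133 and 147.5, and the unshared ones 85 (39 to 162) and 73 (33 to 156). Spearman's rho between the score in replicate 1 and that in replicate 2 was 0.838 over the 50 regions and 0.717 over all 6834, as a description over regions of the same 2 libraries.

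Other chromatin genes were counted the same way, over 90 genes that are mostly other subunits of the same complexes, 54 histone methyltransferase and demethylase genes and 16 histone deacetylase genes. The first list, called the other subunits here, also holds Smarcal1, Chd1l, Atrx, Hells and Hat1. Those are related remodelling or acetyltransferase genes rather than such subunits. Within 1 kb of an end, a shared region lay at 13 of the other subunits (14.4%, Wilson 95% interval 8.64 to 23.2%), 8 of the methylation genes (14.8%, 7.70 to 26.6%) and 1 of the deacetylases (6.25%, 1.11 to 28.3%), beside 13.2% of the 38 genes. Inside the gene, a region lay at 11 (12.2%, 6.96 to 20.6%), 9 (16.7%, 9.02 to 28.7%) and 2 (12.5%, 3.50 to 36.0%) in the same order, below the 31.6% of the 38 genes. The gene was the nearest of a region at 20 (22.2%), 15 (27.8%) and 3 (18.8%), against 36.8%. In the window, a region lay at 46 (51.1%), 31 (57.4%) and 12 (75.0%), beside 60.5%. A strong region lay in the gene or within 1 kb of it at 5 (5.56%), 6 (11.1%) and 2 (12.5%), beside 10.5%. The differences between lists were not tested. Median gene lengths were 27.9, 50.3 and 21.0 kb in the same order, all shorter than the 80.5 kb of the 38 genes.

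Of the highest-scoring regions in or within 1 kb of these other genes, only that in Kdm6b reached the 3 strong regions of Arid1a. Its lower score of 1053 lay in their range of 926 to 1248, and those of the others were below it. Among the other subunits the highest-scoring regions were in Ss18, a BAF subunit (scores 1108 and 869), at Tada3, a subunit of acetyltransferase complexes (938 and 756), and at Kansl3, a partner of Kat8 (612 and 673). Among methylation genes they were in Kdm6b (1070 and 1053) and Smyd3 (961 and 854) and at Setd1a (961 and 798). Of the deacetylases, Hdac2 had a region 103 bp from an end (1035 and 820), and Hdac9 held 7 regions, the best with 410 and 372.

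**Figure D5:**
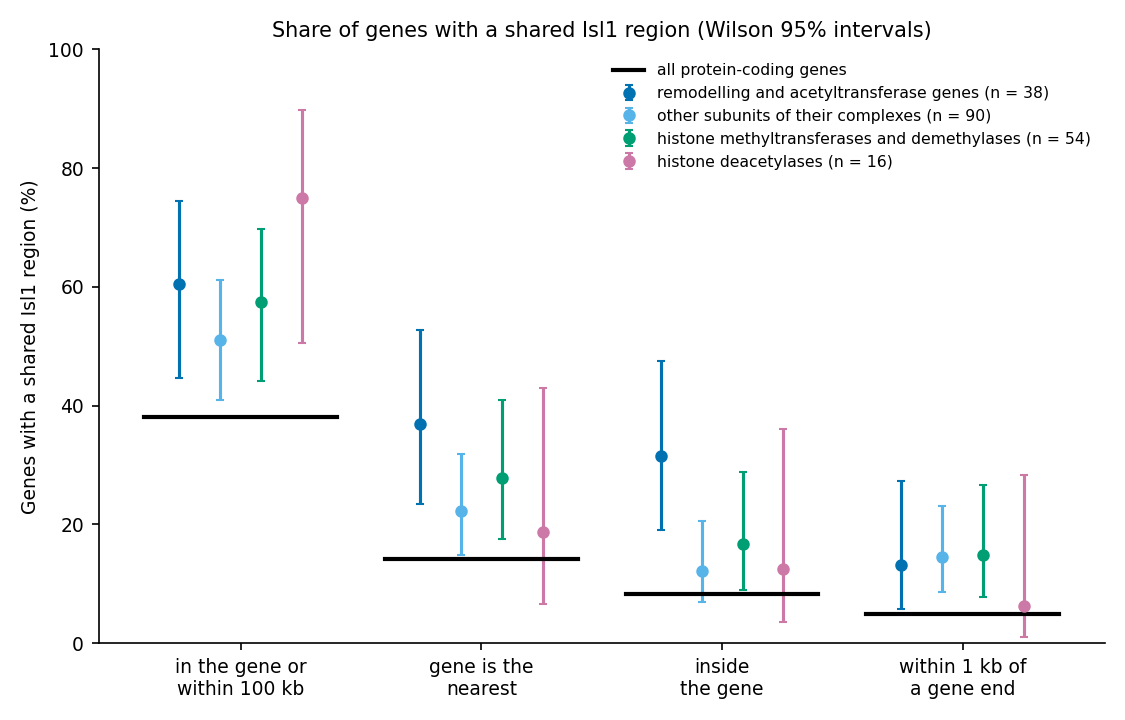
Share of genes with a shared Isl1 region under 4 rules, for the 38 genes and 3 further lists of chromatin genes, with Wilson 95% intervals, which cover counting error alone; black lines give the share of all 21883 protein-coding genes. The lists overlap within their intervals under each rule.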

How the data were processed

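The 2 Isl1 ChIP samples had 1 peak list each, in mm10, whose score column the authors deposited. Per the submitters' processing notes, Trimmomatic 0.35, Bowtie2 2.2.6, MACS2 2.1.0.20150731 and bedtools were used. Their order, settings, threshold, use of the input and the formula of the score were not given in the sources used here, so scores served to rank, filter and describe peaks, and no ratio of scores was read. Overlapping peaks of both lists were joined into a shared region, placed by the midpoint of their longest overlap.

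Gene spans came from a RefSeq table of GRCm38.p6 and starts from its promoter table, which held 30 of the 38 genes. Distances to a gene without a tabled start were taken to the ends of its span. No exons and no genome sequence were used. Nearest genes were protein-coding. The motifs were TAAT (homeodomain core), CTAATG (LIM-homeodomain word), TAATTA (paired homeodomain word), TAATTG (homeodomain word), CCGGAAG (Ets factors), CCAAT (the NF-Y box), GGGCGG (the GC box), CACGTG (E-box), TGACGTCA (CRE), AAGATGGCG (YY1), the NRF1 palindrome and the ZNF143 element. TAAT lies within 3 of the others. Python 3.11.15, pandas 2.3.3 and scipy 1.17.1 were used, and the joining of peaks was tested on simulated data.

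Given in full were the genes with a region inside or within 1 kb of an end, the best region of each other gene, and the 3 genes per further list with the highest lower score. The genes and lists were chosen with earlier results of these data known, among them the strong regions in Arid1a and Baz2a. A high share of genes with a region, or of strong regions, is therefore not independent support. The details of 1 further region are not reported here. Alternatives changed the overlap, score threshold, window, placement and replicates.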

Additional observations from a re-analysis of the deposited data

How the results depend on the processing

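Between 10 and 17 of the 38 genes were the nearest gene of a region, 10 to 15 held a region inside and 4 to 7 had a region within 1 kb of an end, in all settings that kept the 38 genes. The number with a region in the window was 23, and it was 15 with scores at or above the median of each list, 13 with a window of 10 kb and 35 with 500 kb. The number of regions, 50, was 29, 23 and 172 in the same settings. The median lower score, 107.5, became 297 and 138 with the stricter scores, by construction. With a single replicate the counts of genes were 28 and 29 in the window, 16 and 17 nearest, 13 and 15 inside and 7 and 7 at an end, the counts of peaks 65 and 70, and the median scores 120 and 107, without replicate 1 and without replicate 2. With only the genes of middle length, chosen after the data were seen, 9 had a region in the window, 6 were nearest and 5 held a region inside, out of 18. Of 207 counts at single genes under the alternatives, 151 stayed within 1.5 times and 56 did not, of which 14 each came from the windows of 10 and 500 kb. No paired analysis was possible because only the ChIP samples had peak lists and the inputs that carry the same replicate numbers had none. Unknown read depth limits what a missing weak peak can show.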
